A study of Homo sapiens with 18 samples.

Results

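PSAT1, ASNS and MTHFD1L encode 3 enzymes that make amino acids or feed the folate cycle. They were taken as the genes with these symbols in the array's annotation, 3 of the 14884 named genes, and each was read by 1 of the 48226 probe sets. The data were 18 Affymetrix Human Gene 2.0 ST arrays of U937, an established human monocytic cell line grown from a histiocytic lymphoma, with 3 arrays in each of 6 groups. The groups were decitabine plus panobinostat, decitabine plus valproic acid, panobinostat, valproic acid, decitabine, and control. Decitabine (5-aza-2´-deoxycytidine), a cytosine analogue that traps DNA methyltransferases, was applied in 3 daily pulses, each lasting 24 h. Panobinostat and valproic acid block histone deacetylases and stayed on the cells for 24 h, in the combinations alongside the final decitabine pulse. All cells were kept in RPMI medium with fetal calf serum and antibiotics. No unit stands beside the doses in the labels, so the inhibitors could not be matched by dose, and it is not stated what the control cells received. Whether replicate arrays stem from separate cultures is not stated, so the errors and p-values below measure the spread between these arrays, which may be technical. The 3 genes were picked with these arrays known, so their levels and differences are described without a test.

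Cells build serine from a glycolytic intermediate in 3 steps, and serine then gives glycine and 1-carbon units to folate. PSAT1, phosphoserine aminotransferase, runs the middle step of serine synthesis and takes its amino group from glutamate. MTHFD1L, the mitochondrial formyltetrahydrofolate synthetase, releases formate from folate, and that formate is used in the cytosol to build purines and thymidylate. ASNS, asparagine synthetase, moves an amide group from glutamine onto aspartate. All 3 are known targets of the integrated stress response, in which the transcription factor ATF4 raises amino acid synthesis, uptake and tRNA charging when amino acids run short. Leukaemic cells with little ASNS are the ones known to be sensitive to asparaginase.

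PSAT1 lies on chromosome 9 between 78297125 and 78330093, ASNS on chromosome 7 between 97851677 and 97928441, and MTHFD1L on chromosome 6 between 150865702 and 151101887 of GRCh38.p14. The RefSeq table of promoter windows, which run from 250 bases before to 50 bases after a start site, held 7 windows of these 3 genes. The letters TGATGNAA, the composite element that ATF4 binds with a CCAAT-enhancer-binding protein, were searched on both strands. The sequences below show where the windows of the 3 genes differed in these letters, with TGATGNAA in capitals for ASNS and for the first MTHFD1L stretch, the E-box CACGTG in capitals for the second, and CCAAT in capitals for PSAT1.
ASNS, chr7:97872409-97872528, minus strand: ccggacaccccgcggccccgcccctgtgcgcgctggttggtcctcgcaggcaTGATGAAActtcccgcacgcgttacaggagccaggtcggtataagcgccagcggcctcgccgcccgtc
MTHFD1L, chr6:150866346-150866375, plus strand: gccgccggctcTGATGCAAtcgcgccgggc
MTHFD1L, chr6:150866320-150866349, plus strand: cacgcccggctcCACGTGcgcagccggccg
PSAT1, chr9:78297005-78297124, plus strand: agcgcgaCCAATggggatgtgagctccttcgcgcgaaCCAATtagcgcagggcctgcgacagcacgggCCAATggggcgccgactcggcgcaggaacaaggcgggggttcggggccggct

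In ASNS the TGATGAAA began 68 bases before the start site at 97872408, and the other ASNS window had no match. In MTHFD1L the TGATGCAA and the CACGTG each stood in 3 of 4 windows, because these 3 overlap. The TGATGCAA began before the start site in 2 of these windows and after it in the window of the start site 150866333. The 1 PSAT1 window held neither of these letters and held CCAAT 3 times, which 3.26% of the 35116 windows in the table did. TGATGNAA was found in 3.62% of all windows, CACGTG in 7.26% and CCAAT in 34.61%. These matches are letters in a window of fixed length and were not measured as binding sites. The windows also differed in CG dinucleotides, the site of DNA methylation. The PSAT1 window had 37 and the 3 overlapping MTHFD1L windows 40, 41 and 40, while the ASNS windows had 25 and 27 and the MTHFD1L window at the start site 151007008 had 5, against a median of 14 over all windows. DNA methylation was not measured on these arrays.

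The label of the cells was checked on their markers. MPO, a granule enzyme of myeloid precursors, and CD4, which U937 carries on its surface, averaged 12.28 ± 0.05 and 9.74 ± 0.18 on the log2 scale in control arrays (SD, n = 3 each), while the monocyte receptor CD14 averaged 3.45 ± 0.10, below the median of 3.84 over all values. Of 12 monocytic markers 6 were on named probe sets. LYZ, lysozyme, rose in all 5 treatments, by 0.78 to 2.24 (log2), and CSF1R, the receptor of macrophage colony-stimulating factor, rose by 1.46 to 2.41. MPO fell in the 4 treatments with an inhibitor, with differences of -0.93 to -0.55. SPI1, a myeloid transcription factor, differed by -0.85 with decitabine plus panobinostat, a call that held in 12 of 14 alternatives. It did not pass in the other treatments. With decitabine plus panobinostat 2 of the 6 markers thus rose and 2 fell. Leaving out valproic acid replicate 1 ended the LYZ call with valproic acid, as did leaving out valproic acid replicate 3 or control replicate 2, and leaving out replicate 3 of decitabine plus valproic acid ended the MPO call there. Markers of other cells were measured for 3 of 7 T and NK genes, 1 of 5 B cell genes, 1 of 5 erythroid genes and 3 of 7 epithelial or stromal genes, with group means between 3.66 and 7.02. Of these CD2, a T cell adhesion receptor, rose by 1.88 with decitabine plus panobinostat and by 2.04 with decitabine plus valproic acid. Calls that each ended when a single array was left out were CD2 and NKG7 with decitabine (0.94 and 1.40), PAX5 with valproic acid (0.76) and EPCAM with decitabine plus panobinostat (0.73). The part of these shifts in the levels below was not tested. In RNA from a whole culture fewer cells carrying a transcript and less of it per cell cannot be told apart. The median level of the named genes was 4.71 with decitabine plus panobinostat and 4.54 in control, and centring the arrays on it lowered the differences between these groups by 0.17. That was the largest such shift among the comparisons with control.

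PSAT1 was lower on every treated array than on every control array. Its log2 level was 9.73, 9.79 and 9.94 with decitabine plus panobinostat. Decitabine plus valproic acid gave 10.40, 10.35 and 10.45, panobinostat 10.11, 10.17 and 10.19, valproic acid 10.76, 10.66 and 10.50 and decitabine 10.62, 10.79 and 10.99. The control arrays read 11.28, 11.21 and 11.40. The group means ran, from the lowest, 9.82 ± 0.11 for decitabine plus panobinostat, 10.16 ± 0.04 for panobinostat, 10.40 ± 0.05 for decitabine plus valproic acid, 10.64 ± 0.13 for valproic acid, 10.80 ± 0.18 for decitabine and 11.30 ± 0.10 for control (SD, n = 3 each). In that order valproic acid and decitabine overlapped, and every other pair of neighbours was separated on all arrays. Among the single agents PSAT1 was therefore lowest with panobinostat, and adding decitabine to panobinostat placed it lower again.

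Set against control, PSAT1 was 2.78-fold lower with decitabine plus panobinostat, a log2 difference of -1.48. The difference was -0.89 with decitabine plus valproic acid, -1.14 with panobinostat, -0.66 with valproic acid and -0.50 with decitabine, each with a standard error of 0.11 from the fit over all genes. On top of decitabine, panobinostat made a difference of -0.98 and valproic acid one of -0.40. On top of an inhibitor, decitabine made a smaller one, -0.34 with panobinostat and -0.23 with valproic acid. The arrays of PSAT1 were separated in all 4 of these comparisons, where 15.9%, 11.7%, 12.4% and 10.2% of all genes had the arrays with both agents below those with 1.

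MTHFD1L had the widest range of the 3 genes. Its log2 level was 7.00, 6.85 and 6.31 with decitabine plus panobinostat. Decitabine plus valproic acid gave 7.95, 7.74 and 7.59, panobinostat 8.04, 8.23 and 7.78, valproic acid 7.86, 8.17 and 8.03 and decitabine 8.75, 8.46 and 8.75. The control arrays read 9.05, 9.33 and 9.84. All treated arrays lay below all control arrays, and the arrays with decitabine plus panobinostat lay below every other array. The means were 6.72 ± 0.36 for decitabine plus panobinostat, 7.76 ± 0.18 for decitabine plus valproic acid, 8.02 ± 0.15 for valproic acid, 8.02 ± 0.23 for panobinostat, 8.65 ± 0.17 for decitabine and 9.41 ± 0.40 for control (SD, n = 3 each). The groups with decitabine plus valproic acid, valproic acid and panobinostat each overlapped their neighbour among these 3, and the other neighbours did not overlap.

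With decitabine plus panobinostat MTHFD1L was 6.45-fold lower than in control, a log2 difference of -2.69. That was the second lowest difference among the 14884 genes in this comparison. The difference from control was -1.65 with decitabine plus valproic acid, -1.39 with panobinostat, -1.39 with valproic acid and -0.75 with decitabine (SE 0.20). Panobinostat on top of decitabine made a difference of -1.94, and decitabine on top of panobinostat one of -1.30. Valproic acid on top of decitabine made -0.89, while decitabine on top of valproic acid made -0.26 with overlapping arrays. Both inhibitors alone thus gave the same difference from control to 2 decimals, while with decitabine added the panobinostat arrays lay below the valproic acid ones.

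ASNS followed another order. Its log2 level was 7.83, 7.42 and 7.47 with decitabine plus panobinostat. Decitabine plus valproic acid gave 7.48, 7.33 and 7.49, panobinostat 6.95, 7.35 and 6.71, valproic acid 7.60, 7.59 and 7.79 and decitabine 6.84, 6.95 and 6.41. The control arrays read 7.61, 8.18 and 7.59. Decitabine alone and panobinostat alone had the low arrays, while the arrays with both agents overlapped the control arrays, as did those with valproic acid. The means were 6.73 ± 0.28 for decitabine, 7.00 ± 0.32 for panobinostat, 7.43 ± 0.09 for decitabine plus valproic acid, 7.57 ± 0.23 for decitabine plus panobinostat, 7.66 ± 0.11 for valproic acid and 7.79 ± 0.33 for control (SD, n = 3 each). In this order every group overlapped its neighbours.

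The ASNS difference from control was -0.22 with decitabine plus panobinostat, -0.36 with decitabine plus valproic acid, -0.79 with panobinostat, -0.14 with valproic acid and -1.06 with decitabine (SE 0.19). Control replicate 2 was the highest ASNS array of all. Without it the differences were -0.02, -0.17, -0.60, 0.06 and -0.86 in the same order, so that the sign with valproic acid turned. Panobinostat on top of decitabine left ASNS 0.84 higher than decitabine alone, and valproic acid on top of decitabine 0.70 higher. Decitabine on top of panobinostat left it 0.57 higher than panobinostat alone, and all arrays were separated in these 3 comparisons, where 14.2%, 11.2% and 12.5% of all genes had the arrays with both agents above those with 1. Decitabine on top of valproic acid made a difference of -0.22, with the arrays separated as well.

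**Figure D1:**
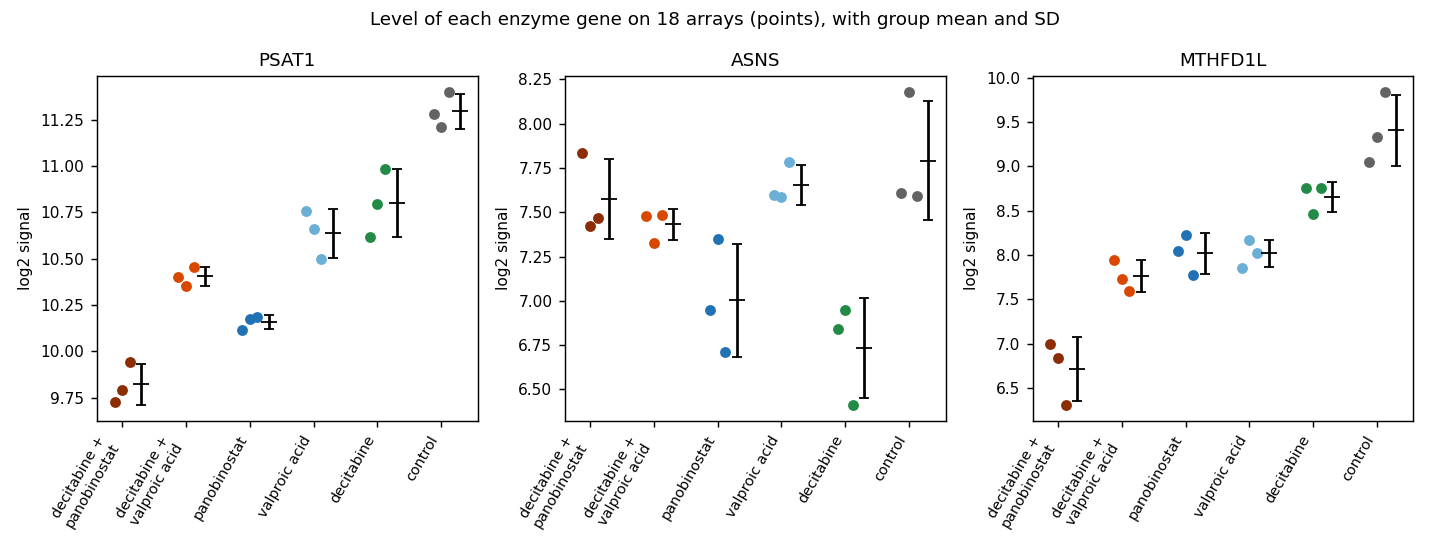
Log2 signal (vertical axis, a separate scale for each gene) of PSAT1, ASNS and MTHFD1L in the 6 treatment groups. Points are the 3 arrays of a group and the bars beside them the mean and SD; PSAT1 and MTHFD1L have all treated arrays below control, while ASNS has its lowest means with decitabine (6.73) and panobinostat (7.00).

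How many of the 3 genes had all treated arrays below all control arrays was read beside the same share over all genes. All 3 did with decitabine, where 11.2% of all genes did, with panobinostat, where 12.9% did, and with decitabine plus valproic acid, where 16.2% did. PSAT1 and MTHFD1L did with decitabine plus panobinostat (18.7% of all genes) and with valproic acid (12%). The genes were chosen on these arrays, so these counts describe them only. The 5 comparisons share the same 3 control arrays.

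The level with both agents was then set beside the sum of the differences with each agent alone, on the log2 scale. For PSAT1 and panobinostat the sum was -1.64 and the measured difference -1.48, which is 0.16 above the sum (SE 0.15). For MTHFD1L the sum was -2.14 and the measured difference -2.69, a measured minus sum of -0.55 (SE 0.29). For ASNS the sum was -1.85 while the measured difference was -0.22, which left 1.63 between them (SE 0.27). With valproic acid the measured difference was above the sum for all 3 genes, by 0.26 for PSAT1 (SE 0.15), 0.83 for ASNS (SE 0.27) and 0.49 for MTHFD1L (SE 0.29). With 1 array left out the ASNS gap stayed between 1.43 and 1.80 with panobinostat and between 0.64 and 0.94 with valproic acid. The smaller gaps moved more. The MTHFD1L gap was -0.35 with panobinostat without replicate 3 of the combination, and 0.28 with valproic acid without control replicate 3. The PSAT1 gap with panobinostat was 0.07 without decitabine replicate 1, 0.10 without replicate 3 of the combination and 0.25 without decitabine replicate 3, and with valproic acid it was 0.17 without decitabine replicate 1. None of these 6 gaps changed sign with 1 array left out.

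**Figure D2:**
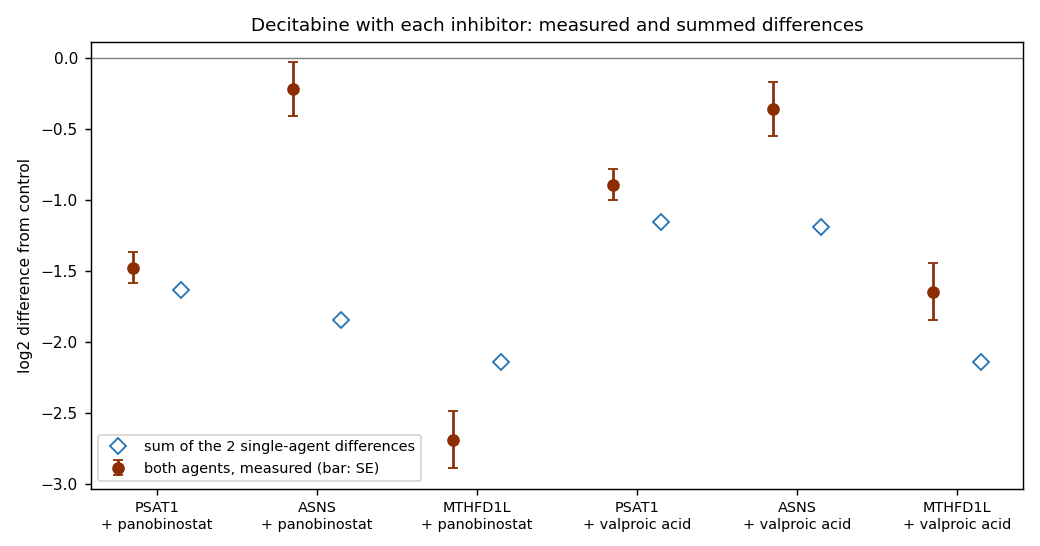
Log2 difference from control with decitabine and an inhibitor together (filled circles, with the SE of the fit) beside the sum of the 2 single-agent differences (open diamonds), for each gene and inhibitor. The widest gap is that of ASNS with panobinostat, -0.22 measured and -1.85 summed; for MTHFD1L with panobinostat the measured value is the lower one.

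Across the 18 arrays the levels of PSAT1 and MTHFD1L had a Pearson correlation of 0.891 and a Spearman correlation of 0.814. PSAT1 and ASNS had 0.086 and 0.207, and ASNS and MTHFD1L -0.025 and 0.04. After subtraction of the group means the Pearson correlation of PSAT1 and MTHFD1L was -0.141, so their likeness lay between groups and not between the arrays of a group. For PSAT1 and ASNS it was then -0.547, and for ASNS and MTHFD1L 0.163. These are descriptions over arrays that share treatments.

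The protein-coding genes with the most similar pattern were found by the root mean square difference between 6 group means, each gene centred on its own mean. For PSAT1 they were GLUD1 (0.0759, log2), POLRMT (0.0991), QDPR (0.10), DUS3L (0.11) and FERMT1 (0.115), with Pearson correlations over 18 arrays of 0.772 to 0.912. GLUD1 is the mitochondrial glutamate dehydrogenase and POLRMT the mitochondrial RNA polymerase. For MTHFD1L they were IPO4 (0.221), CENPV (0.236), UNG (0.236), WDFY4 (0.244) and PUS1 (0.252), with correlations of 0.88 to 0.954. IPO4 is an importin, UNG removes uracil from DNA and PUS1 modifies uridine in tRNA. For ASNS they were PHPT1 (0.124), SHB (0.125), GTF2IRD1 (0.148), BORCS8-MEF2B (0.17) and SOCS7 (0.176), with lower correlations of 0.462 to 0.861. The 3 genes themselves moved around their own means by a root mean square of 0.47 for PSAT1, 0.375 for ASNS and 0.822 for MTHFD1L. By the difference between centred group means MTHFD1L was only at rank 2605 from PSAT1, and PSAT1 at rank 91 from MTHFD1L.

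**Figure D3:**
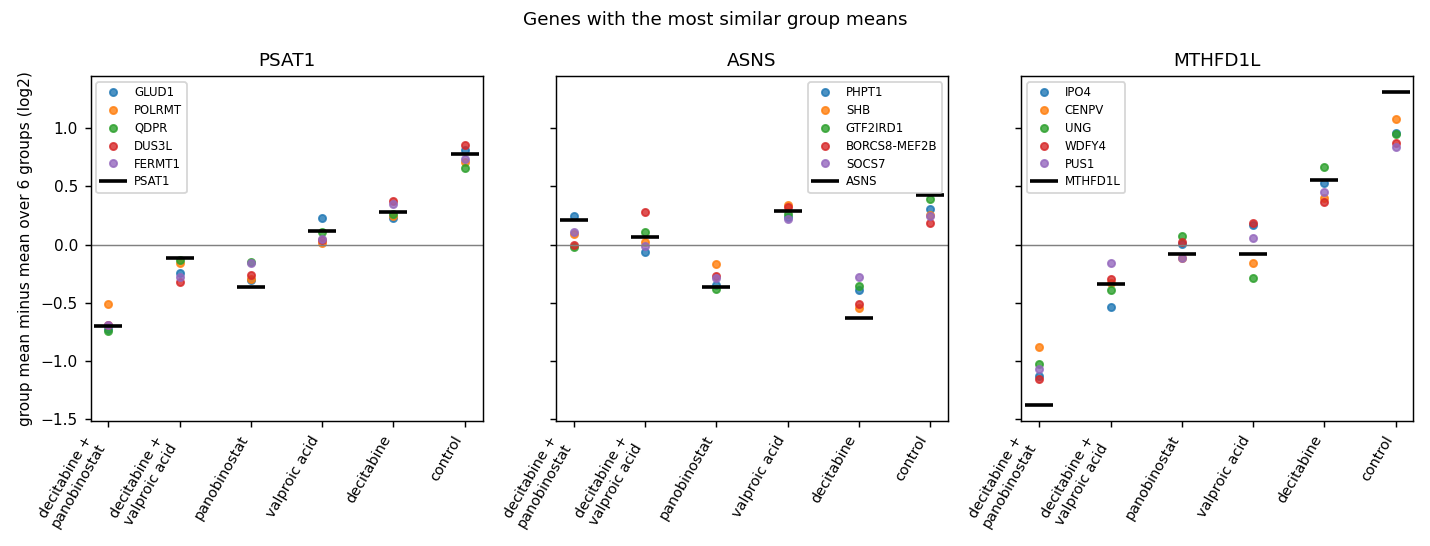
Group means, each minus the gene's mean over the 6 groups (vertical axis, log2), of PSAT1, ASNS and MTHFD1L (black bars) and of the 5 genes nearest to each (coloured points). The genes around PSAT1 and MTHFD1L have their lowest mean with decitabine plus panobinostat and their highest in control, while all 5 genes around ASNS have their lowest with decitabine or panobinostat alone. The nearest genes were chosen by these same group means, so the shared pattern follows from the choice.

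The other genes of the same pathways were tested. The lists held 133 genes besides the 3 enzymes, and 79 of them were on probe sets with a symbol in the annotation used, which are the genes called measured here. Not analysed here were the 18 amino acid transporters of the list and 11 of 21 folate genes, among them MTHFD1 and MTHFD2, which work next to MTHFD1L; probe sets without a symbol may read some of them. With decitabine plus panobinostat 35 of 79 genes fell and 6 rose against control, beside 12% of all genes called lower and 11.2% higher. With decitabine plus valproic acid 27 fell and 5 rose (8.06% and 8.90% of all genes), with panobinostat 22 fell and 1 rose (3.47% and 3.92%), with valproic acid 9 fell and 2 rose (2.74% and 4.73%), and with decitabine 5 fell and 1 rose (1.39% and 2.57%). The median difference of the 79 genes was -0.34 with decitabine plus panobinostat and -0.16 with decitabine, where the median of all genes was -0.02 and -0.01. After centring of the arrays on their median, 39 of the 79 fell and 4 rose with decitabine plus panobinostat. Over all 14884 genes 3325 then fell and 1176 rose, instead of 1779 and 1668. The share of all called genes that were lower was thus 73.9% instead of 51.6%. Single arrays decided part of the smaller counts, over all genes as well as over the 79. Over all genes 1100 were called with panobinostat but as few as 659 without control replicate 3, 1112 with valproic acid but as few as 508 without valproic acid replicate 1, and 590 with decitabine but as few as 361 without control replicate 2. With panobinostat 23 of the 79 were called in all, but 11 without control replicate 3, 15 without control replicate 2, 15 without panobinostat replicate 1 and 14 without panobinostat replicate 3. With valproic acid 11 were called in all, but 1 without valproic acid replicate 1, 7 without valproic acid replicate 3, 6 without control replicate 1 and 4 without control replicate 3. The genes named below with a difference of their own and the verbs rose or fell kept that call under every alternative run, leaving out each array included, unless another value is given beside them.

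The serine and glycine genes were all measured, 10 of 10. With decitabine plus panobinostat 5 of them fell and 1 rose. PHGDH, the first enzyme of serine synthesis, read 9.10, 9.30 and 9.58 with decitabine plus panobinostat, against 10.10, 10.03 and 10.00 in control, a difference of -0.72 (adjusted p = 0.000515). PSPH, the last enzyme of that route, read 8.25, 8.63 and 8.21 with both agents, against 9.15, 9.17 and 9.52 in control, a difference of -0.92 (adjusted p = 0.000333). So all 3 steps of serine synthesis had lower arrays with both agents than in control, PSAT1 by description and the other 2 by the test. CTH, which makes cysteine from cystathionine, fell by 1.14 with both agents and, with panobinostat, fell by 1.39. SHMT2, the mitochondrial enzyme that hands serine's carbon to folate, differed by -0.33 with both agents (adjusted p = 0.526).

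The genes of the glycine cleavage system, which breaks glycine down to feed folate, did not move together. GLDC, its decarboxylase, rose by 1.12 with decitabine plus panobinostat and by 1.69 with decitabine plus valproic acid. It read 5.28, 5.11 and 5.51 with decitabine plus panobinostat and 5.35, 6.14 and 6.11 with decitabine plus valproic acid, against 4.25, 4.33 and 3.96 in control. With a single agent no GLDC difference passed the test (-0.20 with panobinostat, 0.43 with valproic acid and 0.30 with decitabine), and the interaction did not pass either. With decitabine plus panobinostat the carrier protein GCSH fell by 0.94, and the aminomethyltransferase AMT fell by 0.51. AMT also fell by 0.65 with decitabine alone. The AMT group means lay between 4.08 and 4.84, and GLDC averaged 4.18 in control, beside a median of 3.84 over all values. DLD, the dehydrogenase of the system, averaged 10.57 in control. It differed by -0.01 with decitabine plus panobinostat (adjusted p = 0.972 in the limma fit).

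Among the 10 measured folate genes 2 fell with decitabine plus panobinostat and 1 rose. TYMS, thymidylate synthase, which spends a folate 1-carbon unit to make thymidylate, read 10.94, 10.83 and 10.87 with decitabine plus panobinostat, against 11.88, 11.99 and 11.96 in control and a mean of 11.98 ± 0.04 with decitabine (SD, n = 3). It fell by 1.06 against control (adjusted p = 0.000117) and fell by 1.10 against decitabine (adjusted p = 0.000229). MTR, methionine synthase, fell by 0.63 with decitabine plus panobinostat. FTCD, which moves a formimino group onto folate, was the gene that rose, by 0.39, a call that held in 4 of 14 alternatives. MTHFD2L, a mitochondrial folate dehydrogenase, differed by -0.34 without passing the test.

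Purine synthesis uses the formate that MTHFD1L releases. Of its 10 measured genes 9 fell and 1 rose with decitabine plus panobinostat, with a median of -0.79, and 6 fell and 1 rose with decitabine plus valproic acid. PFAS, which acts in the middle of the route, read 6.61, 6.97 and 7.33 with decitabine plus panobinostat, against 8.53, 8.70 and 8.75 in control, a difference of -1.69 (adjusted p = 1.45e-05). ATIC, which inserts the last formyl group, fell by 1.05 (adjusted p = 1.19e-05), and ADSL, which acts at 2 steps of purine synthesis, fell by 0.87. The gene that rose, ADSS1, makes the precursor of AMP and rose by 0.76, a call for which no alternative was run. On top of panobinostat, decitabine lowered 6 of 10 purine genes and raised 1, beside 4.13% and 5.42% of all genes. Of the measured replication and division genes 6 of 11 fell with decitabine plus panobinostat, 3 with decitabine plus valproic acid and 0 with the other treatments. Of the 6 calls 5 or 6 held with 1 array left out. Of the 3 calls (MCM5, MCM6 and RRM2) 0 held without replicate 3 of decitabine plus valproic acid, 1 without any 1 of the control arrays, and 2 without replicate 1 or 2 of the combination. RRM2, a subunit of ribonucleotide reductase, fell by 0.79 with decitabine plus panobinostat, while TOP2A, a topoisomerase of dividing cells, differed by 0.26 without passing. The part of proliferation in the purine and folate levels was not tested.

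Of the 11 measured asparagine, glutamine, arginine and proline genes, 3 fell with decitabine plus panobinostat. GLUD1 fell by 1.54 and PYCR3, which makes proline, fell by 1.29. ASS1, which joins aspartate to citrulline, fell by 1.23, and it also fell by 1.35 with panobinostat and fell by 1.03 with decitabine. It read 6.48, 5.79 and 6.30 with decitabine plus panobinostat, 6.00, 6.04 and 6.17 with panobinostat and 6.49, 6.10 and 6.56 with decitabine, against 7.59, 7.17 and 7.50 in control. Both ASS1 and ASNS had all arrays below control with either of these agents alone. With both agents ASS1 averaged 6.19 ± 0.36, also below all control arrays, while the ASNS arrays overlapped those of control.

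**Figure D4:**
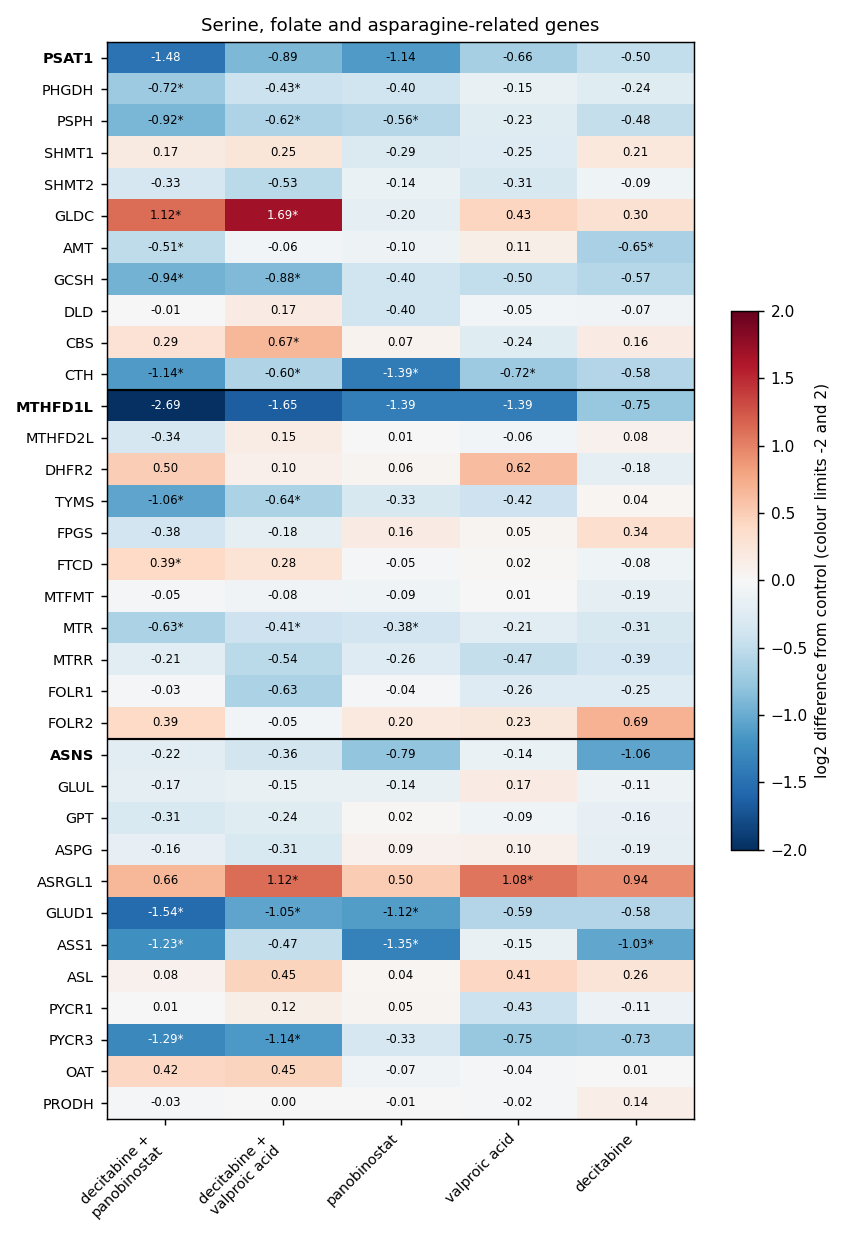
Log2 difference from control (colour and number) of the serine and glycine, folate, and asparagine-related genes in 5 treatments, with the 3 enzymes in bold. A star marks an adjusted p under 0.05 in the limma fit; the 3 enzymes were not tested and carry none. MTHFD1L has the darkest cell (-2.69), and GLDC is the gene with the highest positive value (1.69).

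Of the 9 measured regulators of the integrated stress response 1 fell and 2 rose with decitabine plus panobinostat. ATF4, its central transcription factor, read 10.66, 10.76 and 10.32 with decitabine plus panobinostat, against 11.09, 10.83 and 11.23 in control, a difference of -0.47 (adjusted p = 0.0203). That call was lost without control replicate 1, control replicate 3 or replicate 3 of the combination (adjusted p up to 0.113), and also under quantile normalization or with only the groups compared in the fit. DDIT3 and TRIB3, which ATF4 is known to induce, differed by 0.10 and -0.44 without passing. ATF3, a factor induced by many stresses, rose by 0.73 with decitabine plus panobinostat and by 1.07 with decitabine plus valproic acid. ATF5, another factor of this response, went opposite ways with single agents: it fell by 1.45 with panobinostat and rose by 1.47 with decitabine. EIF4EBP1, an ATF4 target that holds back translation, fell in all 5 treatments, with differences of -1.54 with decitabine plus panobinostat and -1.02 to -0.48 in the others. The call with valproic acid was lost without valproic acid replicate 1 (adjusted p = 0.0592) and with only the groups compared. Of the 12 measured targets on the list 3 fell and 1 rose with decitabine plus panobinostat, with a median difference of 0.06. With panobinostat on top of decitabine 2 of the 12 rose and 1 fell, beside 7.66% and 7.91% of all genes. DDIT4 rose by 0.68 and GDF15 by 0.70 there, and EIF4EBP1 fell by 0.94. With decitabine alone DDIT4 differed by -0.52, a call that held in 10 of 14 alternatives. SESN2 differed by -0.69 with decitabine and -0.77 with panobinostat without passing, and by 0.06 with both agents.

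The tRNA synthetases load amino acids onto tRNA, and ATF4 is known to induce many of them. Of 17 measured, 12 fell with decitabine plus panobinostat, 10 with decitabine plus valproic acid, 11 with panobinostat, 5 with valproic acid and 1 with decitabine, and 0 rose. The median difference was -0.57 with decitabine plus panobinostat and -0.42 with panobinostat. Of the 11 calls with panobinostat, 6 held without control replicate 3, and of the 5 with valproic acid, 1 held without control replicate 3 and 0 without valproic acid replicate 1. With decitabine plus panobinostat MARS1 for methionine fell by 1.10, IARS1 for isoleucine fell by 1.06 and AARS1 for alanine fell by 0.88. AARS1 read 9.59, 9.49 and 9.64 with both agents and 9.60, 9.81 and 9.65 with panobinostat, against 10.33, 10.49 and 10.56 in control. NARS1, which loads the asparagine that ASNS makes, fell by 0.43 with decitabine plus panobinostat. With panobinostat it fell by 0.44, a call lost when panobinostat replicate 1, control replicate 2 or control replicate 3 was left out (adjusted p up to 0.075), and with decitabine, the treatment with the lowest ASNS, it differed by -0.02.

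TGATGNAA, the letters seen in windows of ASNS and MTHFD1L, stood in a promoter window of 7 of the 14 synthetase genes that had windows, beside 4.46% of the 27305 genes in the table. These were AARS1, CARS1, GARS1, IARS1, MARS1, NARS1 and TARS1. With panobinostat all 7 fell, of which 3 held without control replicate 3, and with decitabine plus panobinostat all 7 fell, of which 6 or 7 held with 1 array left out. Of the same 7 genes 5 fell with decitabine plus valproic acid, 2 with valproic acid and 1 with decitabine. The 2 calls with valproic acid were both lost without valproic acid replicate 1, and 1 held without control replicate 3. The call with decitabine, AARS1, held in 9 of 14 alternatives (adjusted p up to 0.0993). Of the 5 calls with decitabine plus valproic acid, 4 or 5 held with 1 array left out. Of the 7 synthetase genes without the letters, 2 fell with panobinostat, 2 with decitabine plus panobinostat, 2 with decitabine plus valproic acid, 3 with valproic acid and 0 with decitabine. Without control replicate 3 or valproic acid replicate 1, 0 of these 3 calls with valproic acid held, and 1 held when valproic acid replicate 3 or control replicate 1 or 2 was left out. With panobinostat 1 of the 2 held without control replicate 1 or 3 or panobinostat replicate 1 or 3, and with decitabine plus valproic acid 1 of the 2 held without control replicate 3. LARS1, VARS1 and YARS1 were measured but had no window in the table, so they stand in neither group. All of them fell with decitabine plus panobinostat (-0.82, -0.93 and -1.03) and with decitabine plus valproic acid (-0.47, -0.80 and -0.54). With panobinostat YARS1 fell (-0.63), LARS1 differed by -0.43, a call that held in 13 of 14 alternatives, and VARS1 did not pass (-0.34). None of them passed with valproic acid or decitabine. The split was made after the levels had been seen and was not tested. None of the 8 serine and glycine genes with a window had the letters, while all 8 held CCAAT, beside 39.72% of the genes in the table.

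**Figure D5:**
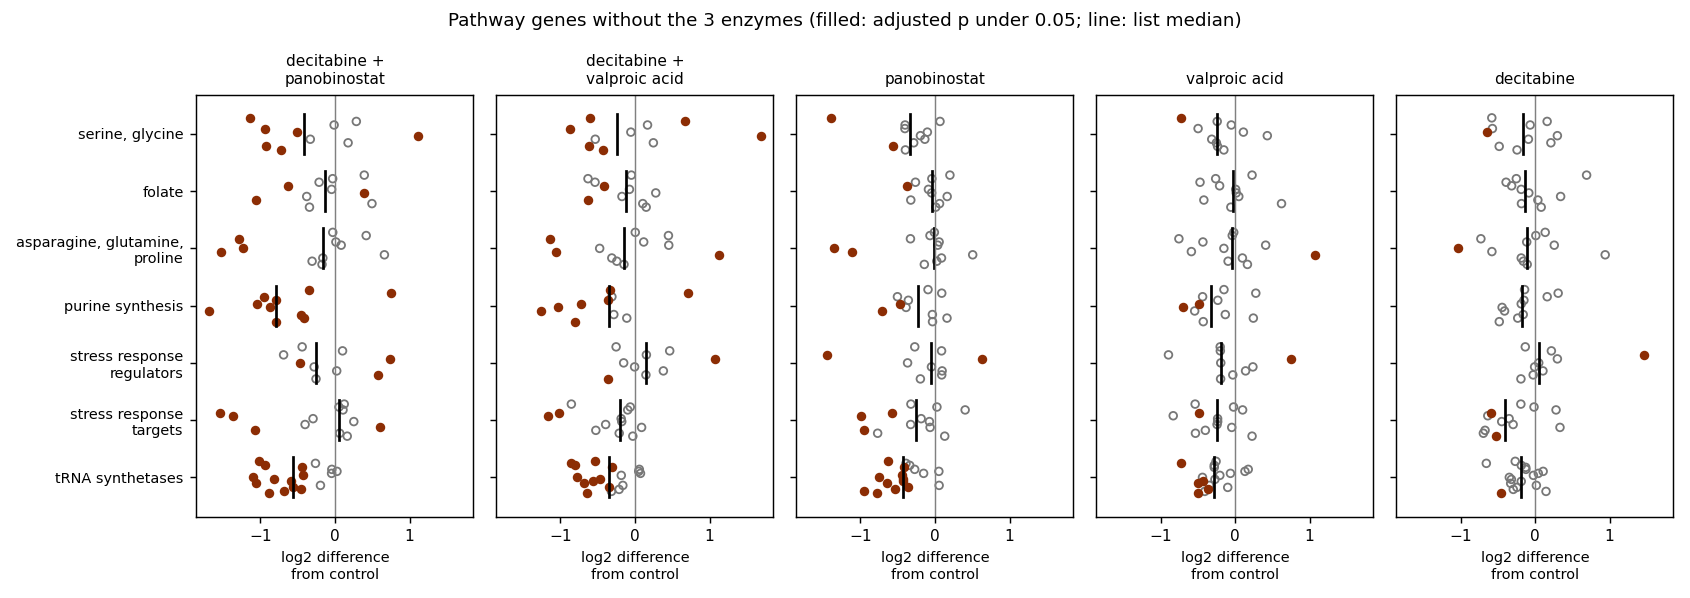
Log2 difference from control (horizontal axis) of the 79 measured pathway genes by list, without the 3 enzymes, in 5 treatments. Filled points passed an adjusted p under 0.05 and the black line is the list median; purine genes with decitabine plus panobinostat have a median of -0.79 and synthetases one of -0.57.

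MYC, a transcription factor known to drive serine, folate and purine genes, was lowest in the combinations. It read 9.19, 9.32 and 8.76 with decitabine plus panobinostat and 9.76, 9.00 and 8.60 with decitabine plus valproic acid, against 10.74, 10.61 and 10.79 in control. MYC fell by 1.63 with decitabine plus panobinostat, fell by 1.59 with decitabine plus valproic acid and fell by 1.03 with valproic acid. With panobinostat the difference of -0.71 did not pass (adjusted p = 0.0617), and the fall of 1.01 with decitabine was lost without control replicate 1, control replicate 3 or decitabine replicate 3. Of 10 measured genes of the MYC network list 2 fell with decitabine plus panobinostat, MYC itself and MNT, and 1 rose. MNT differed by -0.49, a call that held in 8 of 14 alternatives, while MXD4 rose by 1.42. On the list of the oxidative stress factor NRF2, 2 of 6 measured genes fell, 2 rose and 2 did not pass. Those lower were NFE2L2, which encodes NRF2 (-0.60, held in 10 of 14 alternatives), and its repressor KEAP1 (-0.59). The targets HMOX1 and SRXN1 rose by 1.53 and 1.02, SRXN1 in 13 of 14 alternatives. The part of MYC or ATF4 in the levels of the 3 enzymes was not tested.

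The agents were also compared on top of each other. Panobinostat on top of decitabine lowered 22 of the 79 genes and raised 6, beside 7.91% and 7.66% of all genes. Decitabine on top of panobinostat lowered 14 and raised 6 (4.13% and 5.42%). Valproic acid on top of decitabine lowered 7 and raised 4 (2.57% and 3.57%), and decitabine on top of valproic acid lowered 2 and raised 3 (1.40% and 2.63%). GLDC rose in all 4 of these comparisons, and its call held under every alternative processing that was run. Without panobinostat replicate 1, panobinostat replicate 3 or replicate 1 of the combination the calls for decitabine on top of panobinostat numbered 13, 12 and 11 instead of 20. Valproic acid on top of decitabine gave 11 calls, but 3 without replicate 2 and 4 without replicate 3 of the combination, and 4, 6 and 4 without decitabine replicates 1, 2 and 3. Over all genes that comparison had 913 calls, but as few as 360 without replicate 3 of the combination. Decitabine on top of valproic acid gave 5 calls, but 3 without replicate 3 of the combination or valproic acid replicate 2 or 3. After centring, decitabine on top of panobinostat lowered 21 of the 79 genes and raised 4. Over all genes it then lowered 1147 and raised 591, instead of 615 and 806. Valproic acid on top of decitabine lowered 14 of the 79 and raised 4 (767 and 401 over all genes, instead of 382 and 531). Decitabine on top of valproic acid lowered 6 of the 79 and raised 2 (417 and 306 over all genes, instead of 209 and 391). Of the interactions of decitabine with an inhibitor, 0 of 79 genes passed in the limma fit for either one, beside 0.625% of all genes with panobinostat and 0.0605% with valproic acid. At an unadjusted p under 0.05 there were 19 of 79 with panobinostat, beside 10.5% of all genes, and 13 with valproic acid, beside 7.72%.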

How the data were processed

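U937 RNA was measured on 18 arrays, 3 in each of 6 groups taken from the labels. The deposited values are log2 signals that the authors made with RMA, per the submitters' processing notes; its version is not given in the sources used here. Names come from the annotation of the array: 16098 probe sets had 1 symbol, 0 several and 32128 none. For the 779 genes with several probe sets, the one with the highest mean level was used, which left 14884 genes, weakly expressed ones included. Array signals are compressed near background, so small levels understate differences, and the number of arrays limits the precision.

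A model with 1 mean per group was fitted with limma 3.58.1 in R 4.3.3 (12 residual degrees of freedom, empirical Bayes). A gene was called, rose or fell at a Benjamini-Hochberg adjusted p under 0.05 over all 14884 genes of a comparison. There were 11 comparisons: 5 treatments against control, 4 combinations against one agent, and 2 interactions. The code was tested on simulated data.

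The 3 enzymes, the gene lists and the tests were chosen with earlier results of these data known, and the 3 enzymes were given no test. The text names the 3 enzymes, any measured serine, folate or stress regulator gene and MYC, up to 6 called genes of every other list and comparison by size of difference, and the 5 nearest genes to each enzyme. TOP2A, CD4, CD14, ADSS1, NARS1, the other synthetases with TGATGNAA, EPRS1, GDF15 and XBP1 were named outside that rule, after their values were seen. Promoter windows come from RefSeq (GRCh38.p14). Alternatives were the mean of probe sets, a filter on low levels, median centring, quantile normalization, an intensity trend with a robust prior, array weights, the replicate number as a block, only the groups compared, and each array left out.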

Additional observations from a re-analysis of the deposited data

Results flagged for a closer look

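In 4 of 82 genes examined (the 3 enzymes and the 79 pathway genes, 328 pairs of contrasts), an agent moved all arrays one way alone and all arrays the other way on top of the other agent. The same was seen for 2.13% of all 14884 genes. The 4 genes include ASNS, which was picked with these arrays known, so the count is a description only. Decitabine on top of panobinostat left ASNS 0.57 higher than panobinostat alone, while decitabine alone differed from control by -1.06. Panobinostat on top of decitabine left ASNS 0.84 higher than decitabine alone, while panobinostat alone differed from control by -0.79. Control replicate 2, the highest ASNS array, does not enter the comparisons on top of an agent. The difference between these ASNS contrasts was not tested.

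EPRS1, the glutamate and proline tRNA synthetase, was 0.15 higher with decitabine on top of valproic acid, while decitabine alone differed from control by -0.29. GDF15, a stress-induced cytokine, was 0.27 higher with valproic acid on top of decitabine, while valproic acid alone differed from control by -0.23. XBP1, a transcription factor of the unfolded protein response, differed by -0.30 with decitabine on top of panobinostat, while decitabine alone differed from control by 0.28. The interaction in the limma fit did not pass for any of these 3 genes (adjusted p = 0.346 for EPRS1, 0.425 for GDF15 and 0.211 for XBP1).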

How the results depend on the processing

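No direction reversed for any of the 3 enzymes or any called gene under the alternatives run, other than the ASNS difference with valproic acid given above. Centring each array on the median of the named genes moved PSAT1 to -1.65 with decitabine plus panobinostat and to -1.05 with decitabine plus valproic acid. It gave 18 called pathway genes for valproic acid on top of decitabine (11 as deposited) and 8 for decitabine on top of valproic acid (5), and moved the share called lower to 77.8% instead of 63.6% and to 75.0% instead of 40.0%; quantile normalization gave 50% and 25.0%. For decitabine on top of panobinostat centring gave 84.0% instead of 70.0%. The same shares over all genes were 65.7% instead of 41.8%, 57.7% instead of 34.8% and 66.0% instead of 43.3% after centring, in that order. Over all genes centring moved the share called lower to 74.0% instead of 47.5% with decitabine plus valproic acid, with panobinostat 59.7% instead of 47.0%, with valproic acid 53.3% instead of 36.7% and with decitabine 53.3% instead of 35.1%. An intensity trend with a robust prior gave 10 calls for decitabine on top of valproic acid and 1 for the interaction with panobinostat, and array weights gave 10 for decitabine against control (6). With only the groups of a comparison in the fit there were 13 calls for panobinostat (23), 4 for valproic acid (11), 9 for decitabine on top of panobinostat (20), 3 for valproic acid on top of decitabine, 2 for decitabine on top of valproic acid and 1 for the interaction with panobinostat.

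With 1 array left out the calls numbered 11 to 17 for panobinostat, 1 to 9 for valproic acid (1 without valproic acid replicate 1), 5 to 6 for decitabine, 37 to 41 for decitabine plus panobinostat, 22 to 34 for decitabine plus valproic acid, 22 to 25 for panobinostat on top of decitabine, 11 to 18 for decitabine on top of panobinostat, 3 to 15 for valproic acid on top of decitabine (3 without replicate 2 of the combination, 4 without decitabine replicate 1), 3 to 6 for decitabine on top of valproic acid, and 0 to 3 and 0 to 1 for the interactions with panobinostat and valproic acid (3 without replicate 2 of decitabine plus panobinostat). Over all genes the calls then numbered 882 to 1126 for decitabine on top of panobinostat (1421 with all arrays), 360 to 1227 for valproic acid on top of decitabine (913), 371 to 565 for decitabine on top of valproic acid (600), and 46 to 98 and 3 to 26 for the interactions with panobinostat (93) and valproic acid (9).

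The replicate number of the labels was not taken as a pairing. Deviations from the group means of same-numbered arrays correlated between -0.108 and 0.104 in 45 pairs, and 10 of 18 arrays were closest to their own number. With the number as a block 1 pathway gene was called in the interaction with panobinostat, and the other counts of called pathway genes stayed within 1.5 times.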
